A study of Rattus norvegicus with 8 samples.

Results

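The genes described here encode 9 enzymes that break down tyrosine, phenylalanine and tryptophan in the liver: Tat, Hpd, Hgd and Fah of the tyrosine route, and Tdo2, Kmo, Kynu, Haao and Acmsd of the kynurenine route. Each gene was represented by every probe set whose annotation gives its symbol alone, which came to 1 probe set per gene. They are 9 of the 14217 genes that the array's annotation names in this way. Liver RNA from male Sprague-Dawley rats of 180 to 200 g was hybridised to Affymetrix rat arrays, 8 in all, 2 for each of 4 groups. The groups were rats given dexamethasone (1.5 mg/kg, intramuscular) together with AICAR (0.7 g/kg, intraperitoneal), dexamethasone alone, AICAR alone, and saline vehicle, and all livers were collected 8 h after the injection. Dexamethasone is a synthetic glucocorticoid, and AICAR is a nucleoside that cells convert into an activator of the energy-sensing kinase AMPK. The design asks how the glucocorticoid response of the liver differs when AICAR is also given. AMPK activity is not among the values used here.

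Phenylalanine is hydroxylated to tyrosine, and tyrosine is then degraded through homogentisate to fumarate and acetoacetate. Tryptophan is opened by tryptophan 2,3-dioxygenase and passed along the kynurenine route, whose later steps lead either towards quinolinate and the synthesis of NAD or towards complete oxidation. The first enzymes of both routes, tyrosine aminotransferase (Tat) and tryptophan 2,3-dioxygenase (Tdo2), are classical glucocorticoid-induced enzymes of rat liver.

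Promoter sequences are shown for the first gene of each route, for Kmo and Kynu, and for Haao, which varied least. Kmo and Kynu were lowest after both agents, as was Fah, whose sequence is not shown. They come from RefSeq on the build GRCr8, run 5′ to 3′ on the gene's own strand, and cover 300 bases, 250 before the annotated start and 50 after it. Capitals mark matches to any of 7 short motifs searched on both strands, so that ATTGG is a CCAAT match on the opposite strand and TGTTCT likewise stands for the half-site named below. The windows are chr19:54856354-54856653 on the plus strand for Tat, chr2:169585537-169585836 on the minus strand for Tdo2, chr13:90089271-90089570 on the plus strand for Kmo, chr3:48188036-48188335 on the plus strand for Kynu and chr6:16598075-16598374 on the plus strand for Haao.
Tat: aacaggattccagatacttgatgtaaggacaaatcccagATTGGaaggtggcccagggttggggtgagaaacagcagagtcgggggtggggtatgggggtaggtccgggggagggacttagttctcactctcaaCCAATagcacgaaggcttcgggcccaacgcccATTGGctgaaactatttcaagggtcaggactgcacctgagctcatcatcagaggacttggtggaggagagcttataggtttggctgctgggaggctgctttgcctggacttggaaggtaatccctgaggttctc
Tdo2: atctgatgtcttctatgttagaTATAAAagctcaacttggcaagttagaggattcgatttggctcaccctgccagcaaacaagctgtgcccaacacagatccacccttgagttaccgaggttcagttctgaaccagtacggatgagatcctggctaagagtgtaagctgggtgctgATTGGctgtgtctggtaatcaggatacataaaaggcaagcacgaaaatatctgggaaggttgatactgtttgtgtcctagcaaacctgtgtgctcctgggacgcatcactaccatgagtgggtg
Kmo: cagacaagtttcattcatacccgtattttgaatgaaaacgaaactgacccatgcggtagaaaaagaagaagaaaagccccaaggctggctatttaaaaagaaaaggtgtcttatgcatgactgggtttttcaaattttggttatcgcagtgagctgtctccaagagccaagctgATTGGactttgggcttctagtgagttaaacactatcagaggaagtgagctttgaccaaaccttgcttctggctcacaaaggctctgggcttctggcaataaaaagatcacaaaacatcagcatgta
Kynu: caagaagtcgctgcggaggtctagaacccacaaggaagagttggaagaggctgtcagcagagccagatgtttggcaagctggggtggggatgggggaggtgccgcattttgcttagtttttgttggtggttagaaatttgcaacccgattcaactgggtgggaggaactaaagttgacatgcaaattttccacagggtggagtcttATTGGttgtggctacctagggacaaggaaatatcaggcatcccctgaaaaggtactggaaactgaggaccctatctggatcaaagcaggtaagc
Haao: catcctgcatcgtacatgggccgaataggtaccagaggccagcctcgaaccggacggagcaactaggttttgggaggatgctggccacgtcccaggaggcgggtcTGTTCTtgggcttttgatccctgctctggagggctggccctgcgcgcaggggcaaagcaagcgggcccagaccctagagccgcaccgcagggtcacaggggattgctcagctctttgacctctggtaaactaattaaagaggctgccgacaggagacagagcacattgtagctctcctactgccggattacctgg
RefSeq windows were at hand for 8 of the 9 genes, all but Acmsd. The glucocorticoid receptor half-site AGAACA, present in 20.7% of all 33469 promoter windows of this length, was found in 1 of the 8, that of Haao, at -145 to -140 from the start. The CCAAT box, present in 37.5% of all windows, was found in 5 of the 8: those of Tat, Hgd, Tdo2, Kmo and Kynu. TATAAA was found in the Tdo2 window only (14.2% of all windows), the HNF1 half-site GTTAAT in that of Hpd only (7.45%), and the aryl hydrocarbon receptor core GCGTG in that of Fah only (29.7%). The forkhead motif TGTTTAC (3.78% of all windows) and the E-box CACGTG (6.42%) matched none of the 8. No matches of different motifs overlapped. A match in a window is a description of its letters and not a binding site.

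All 9 probe sets lay well above the dim end of the arrays, taken as the lowest lower quartile of any array (3.84 on the log2 scale). Arrays of the same group correlated at 0.997 to 0.998 over all probe sets, and arrays of different groups at 0.979 to 0.993. Nothing in the labels ties the 2 arrays of a group to separate rats, so the p-values describe the spread from array to array, which could be technical. With 2 arrays against 2 an exact permutation test cannot give a p below 0.333, and the tests below instead pool the spread over all 8 arrays and moderate it across probe sets with limma. Known glucocorticoid-induced genes were higher with dexamethasone: against vehicle, Tsc22d3 was higher by 2.05 ± 0.10 on the log2 scale (SE), Igfbp1 by 1.45, Fkbp5 by 1.40 and Per1 by 0.94, all at adjusted p under 0.05. Of these, Igfbp1 was also higher with AICAR alone than with vehicle, by 1.03 (adjusted p = 1.28e-04), and Per1 by 0.43 (0.0444), a call lost without either vehicle array (0.118 and 0.16) or the second AICAR array (0.195). With AICAR present, both agents against AICAR alone, Fkbp5 was higher by 2.48 and Tsc22d3 by 1.18, Igfbp1 was lower by a difference of -0.48, and Per1 was not called (0.32). Of the 9 measured hepatocyte markers, none was dim in any group, and of the 7 measured kidney markers 2 to 3 were below the dim level.

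Tat, whose product removes the amino group of tyrosine as the first and rate-limiting step, was highest with dexamethasone alone and lowest with AICAR alone. Its log2 values were 10.49 and 10.49 with both agents, 11.20 and 11.21 with dexamethasone, 10.03 and 10.03 with AICAR, and 10.38 and 10.39 with vehicle, and no 2 groups overlapped. Dexamethasone raised Tat by 0.82 ± 0.07 over vehicle (SE, adjusted p = 6.84e-05), a 1.77-fold rise. With both agents Tat differed from vehicle by 0.11, with a 95% interval of -0.05 to 0.26 (adjusted p = 0.3), and it was lower than with dexamethasone alone by a difference of -0.71 (adjusted p = 1.53e-04). AICAR alone lowered it by a difference of -0.36 (adjusted p = 0.0117). That last call was lost when any 1 of the AICAR or vehicle arrays was left out, with adjusted p from 0.0565 to 0.0703.

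Hpd and Hgd, which encode the next enzymes of the tyrosine route, the 4-hydroxyphenylpyruvate and homogentisate dioxygenases, were higher in both groups that received dexamethasone. Hpd read 13.58 and 13.59 with both agents, 13.74 and 13.77 with dexamethasone, 13.18 and 13.20 with AICAR, and 13.05 and 13.09 with vehicle. Hgd read 11.78 and 11.75 with both agents, 11.95 and 11.84 with dexamethasone, 10.98 and 10.89 with AICAR, and 11.08 and 10.81 with vehicle. The dexamethasone-treated arrays lay above all others for both genes, and the AICAR and vehicle arrays of Hgd overlapped. Over vehicle, Hpd rose by 0.69 with dexamethasone (adjusted p = 2.11e-04) and by 0.52 with both agents (adjusted p = 5.83e-04). Hgd rose by 0.95 ± 0.10 and by 0.82 in the same comparisons (adjusted p = 2.85e-04 and 3.68e-04). Neither was called between both agents and dexamethasone alone: Hpd differed by -0.17 (95% interval -0.32 to -0.01, adjusted p = 0.132) and Hgd by -0.13 (95% interval -0.35 to 0.10, adjusted p = 0.444). With a trended, robust prior Hpd was called lower in that comparison (8.48e-05), and higher with AICAR alone than with vehicle (0.0032). Neither was called with AICAR alone, Hpd at 0.12 (adjusted p = 0.292) and Hgd at -0.02 (adjusted p = 0.942), a value whose sign turned under both rescalings of the arrays and without 1 vehicle or 1 AICAR array.

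Fah, which encodes fumarylacetoacetase, the last enzyme of the tyrosine route, was lower with both agents than in each of the other groups. It read 10.84 and 10.79 with both agents, 11.91 and 12.03 with dexamethasone, 11.85 and 11.82 with AICAR, and 11.81 and 11.88 with vehicle. The last 3 groups lay close to one another, and AICAR and vehicle arrays overlapped. The fall with both agents was 2.05-fold against vehicle (log2 difference -1.03, adjusted p = 2.06e-05) and 2.23-fold against dexamethasone (-1.16, adjusted p = 1.91e-05). Against vehicle, dexamethasone alone gave 0.12 ± 0.08 (adjusted p = 0.316) and AICAR alone -0.01 (adjusted p = 0.946), the second of which changed sign under both rescalings. The test of the interaction itself, below, bears on the difference between these responses.

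**Figure D1:**
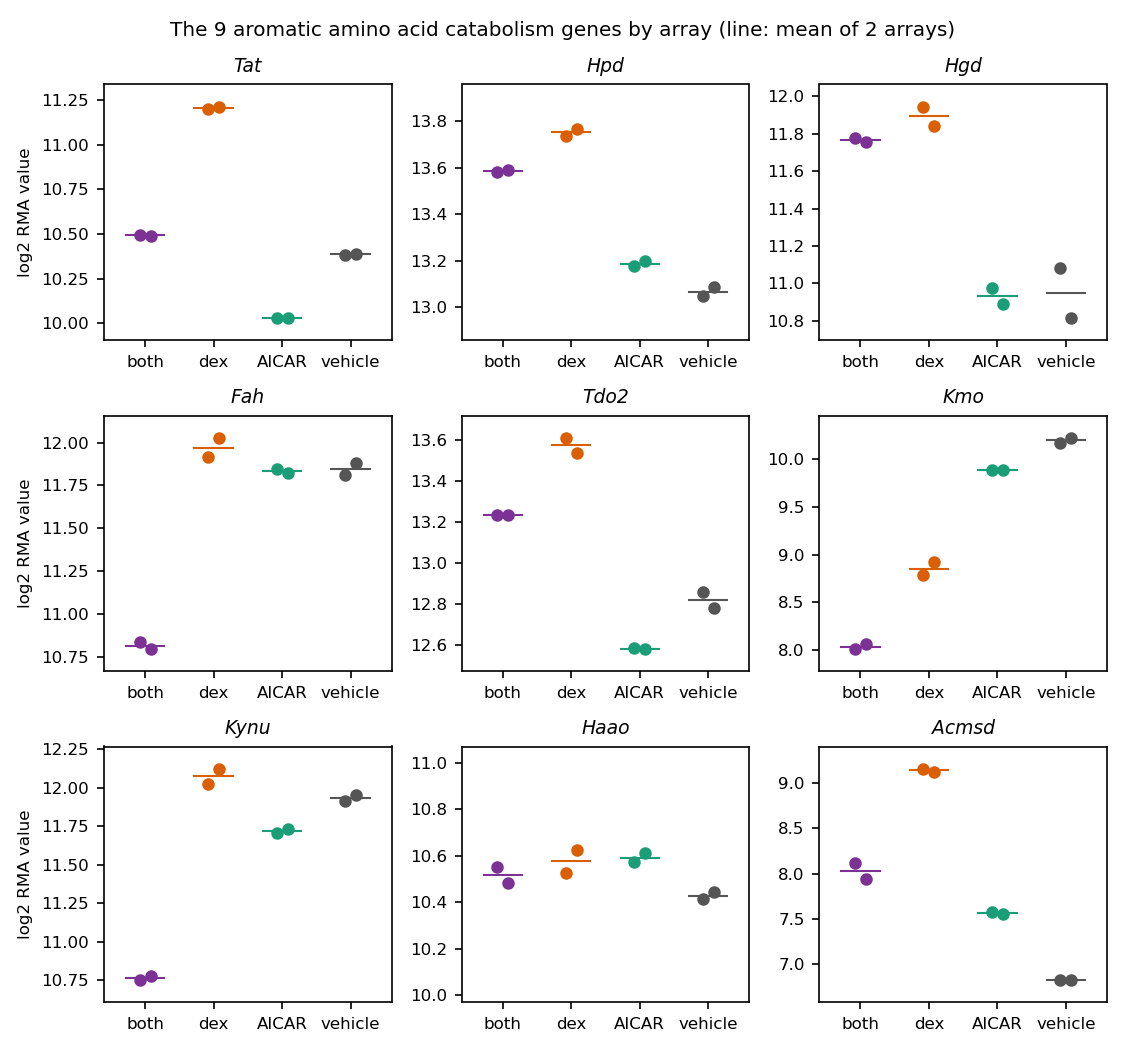
Log2 value of each of the 9 genes (vertical axis, a separate scale for each gene) on the 2 arrays of each group (points), with the group mean as a line; both is dexamethasone with AICAR, and dex is dexamethasone. Fah and Kynu are about 1 unit lower with both agents than in any other group, Kmo falls in steps to 8.01 and 8.06 with both agents, and Acmsd is highest with dexamethasone at 9.16 and 9.12.

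In the tryptophan route, Tdo2, the gene of the enzyme that opens the indole ring and controls entry into the route, followed an order like that of Tat. It read 13.23 and 13.24 with both agents, 13.61 and 13.54 with dexamethasone, 12.59 and 12.58 with AICAR, and 12.86 and 12.78 with vehicle, and no 2 groups overlapped. Tdo2 rose by 0.75 ± 0.07 with dexamethasone (1.69-fold, adjusted p = 1.61e-04) and by 0.41 with both agents (adjusted p = 0.00277), each over vehicle. With both agents it was lower than with dexamethasone by a difference of -0.34 (adjusted p = 0.0104). This call was lost without the first dexamethasone array (adjusted p = 0.0516) and without the first or the second array of both agents (0.064 and 0.0604). AICAR alone gave -0.24, which was not called (adjusted p = 0.0653). It was called lower with dim probe sets left out (0.0409), with gene means (0.03) and with a trended, robust prior (1.79e-05).

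Kmo, which encodes the kynurenine 3-monooxygenase of the outer mitochondrial membrane, fell with dexamethasone and fell further with both agents. It read 8.01 and 8.06 with both agents, 8.78 and 8.92 with dexamethasone, 9.89 and 9.89 with AICAR, and 10.17 and 10.23 with vehicle. All 4 groups stood apart in that order. Against vehicle, Kmo was 4.48-fold lower with both agents (log2 difference -2.17, adjusted p = 3.09e-07) and 2.55-fold lower with dexamethasone (-1.35 ± 0.08, adjusted p = 8.55e-06). Both agents were below dexamethasone alone by a difference of -0.82 (adjusted p = 1.56e-04) and below AICAR alone by -1.86 (adjusted p = 8.67e-07). The smaller fall with AICAR alone, -0.31 (adjusted p = 0.0336), was lost under cyclic loess (0.0675), when only those 4 arrays were fitted (0.0622), and without any 1 of the 4 (0.0901 to 0.138).

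Kynu, the gene of kynureninase, which cleaves kynurenine and 3-hydroxykynurenine, was likewise lower with both agents than in each of the other groups. It read 10.75 and 10.78 with both agents, 12.03 and 12.12 with dexamethasone, 11.70 and 11.74 with AICAR, and 11.92 and 11.95 with vehicle. With both agents it was 2.25-fold lower than with vehicle (log2 difference -1.17, adjusted p = 7.59e-06) and 2.48-fold lower than with dexamethasone (-1.31, adjusted p = 7.69e-06). Dexamethasone alone gave 0.14 (adjusted p = 0.238) and AICAR alone -0.22 (adjusted p = 0.0885), neither of them called. The AICAR difference was called with gene means (0.043), and a trended, robust prior called both (AICAR 3.77e-04, dexamethasone 0.0113).

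Haao, which encodes the 3-hydroxyanthranilate 3,4-dioxygenase that forms the precursor of quinolinate, varied least. It read 10.55 and 10.48 with both agents, 10.53 and 10.62 with dexamethasone, 10.57 and 10.61 with AICAR, and 10.41 and 10.44 with vehicle. The group means spanned 0.16, and arrays of both agents overlapped those of dexamethasone, which overlapped those of AICAR. No comparison was called in the test used here, although 3 were with a trended, robust prior (dexamethasone 0.0224, AICAR 0.0145, interaction 0.0161). The difference from vehicle was 0.09 with both agents (95% interval -0.08 to 0.26), 0.15 with dexamethasone (-0.02 to 0.32) and 0.16 with AICAR (-0.0041 to 0.33).

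Acmsd, whose product diverts the quinolinate precursor away from NAD synthesis, had the widest range of the 9. It read 8.12 and 7.94 with both agents, 9.16 and 9.12 with dexamethasone, 7.58 and 7.56 with AICAR, and 6.83 and 6.82 with vehicle, with no overlap between groups. Acmsd rose 4.97-fold with dexamethasone (2.31 ± 0.08, adjusted p = 6.47e-07), 2.30-fold with both agents (1.20, adjusted p = 1.27e-05) and 1.67-fold with AICAR (0.74, adjusted p = 9.43e-04), each over vehicle. It was the only one of the 9 called higher with AICAR alone. The level with both agents was nevertheless below that with dexamethasone alone, by a difference of -1.11 (adjusted p = 3.69e-05), and above that with AICAR alone by 0.46 (adjusted p = 0.00271).

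Counted over the 9 genes, dexamethasone against vehicle gave 5 higher and 1 lower at adjusted p under 0.05, where 8.67% of all 31042 probe sets were higher and 9.77% lower. The median log2 difference of the 9 was 0.69, against 0.00 over all probe sets. The 5 that rose were Tat, Hpd, Hgd, Tdo2 and Acmsd, and the 1 that fell was Kmo. AICAR against vehicle gave 1 higher and 2 lower, where 5.45% of all probe sets were higher and 7.47% lower, with a median of -0.02 against 0.01 over all. Without any 1 of the AICAR or vehicle arrays, Acmsd was the only gene still called. Both agents against vehicle gave 4 higher (Hpd, Hgd, Tdo2, Acmsd) and 3 lower (Fah, Kmo, Kynu), where 13.3% of all probe sets were higher and 13.6% lower, with a median of 0.11 against 0.01. These 3 comparisons share the vehicle arrays.

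Set against dexamethasone alone, both agents gave 0 higher and 6 lower (Tat, Fah, Tdo2, Kmo, Kynu, Acmsd), where 10.2% of all probe sets were higher and 9.91% lower. The median of the 9 was -0.71, against 0.00 over all probe sets. At an unadjusted p under 0.05 the count of higher genes was also 0, since all 9 differences were below zero. Set against AICAR alone, both agents gave 5 higher (Tat, Hpd, Hgd, Tdo2, Acmsd) and 3 lower (Fah, Kmo, Kynu), where 15.9% of all probe sets were higher and 14.9% lower, with a median of 0.40 against -0.01. The rises were 0.46 for Tat (adjusted p = 9.39e-04), 0.40 for Hpd (0.00234), 0.83 for Hgd (3.06e-04) and 0.65 for Tdo2 (2.01e-04). The falls were -1.02 for Fah (adjusted p = 2.23e-05) and -0.96 for Kynu (2.53e-05). The share of called probe sets that were higher moved with the scaling: centring on the brighter probe sets took it to 57.6%, against 47% as deposited, for dexamethasone against vehicle, and to 56.1%, against 42.2%, for AICAR against vehicle.

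The interaction compares the dexamethasone effect in the presence of AICAR with that in its absence. It was called for 5 of the 9 genes, all with a lower dexamethasone effect in the presence of AICAR, where 7.02% of all probe sets were lower and 8.63% higher in the same sense, and it had a median of -0.36 against -0.01. For Acmsd the difference between the effects was -1.86 ± 0.11 (adjusted p = 2.59e-05): the dexamethasone effect was 0.46 with AICAR and 2.31 without. For Fah it was -1.15 ± 0.11 (adjusted p = 2.65e-04), from effects of -1.02 with AICAR and 0.12 without, and for Kynu -1.10 ± 0.10 (adjusted p = 2.68e-04), from -0.96 and 0.14. For Kmo the fall was deeper in the presence of AICAR, by -0.51 ± 0.11 (adjusted p = 0.0153), a call lost without the first vehicle array (0.0517), the first AICAR array (0.0503) or the first array of both agents (0.0631). For Tat the interaction was -0.36 ± 0.09 (adjusted p = 0.0357), lost without any 1 array (0.0632 to 0.106). Hpd (-0.29 ± 0.10, adjusted p = 0.0829), Hgd (-0.11, 0.656), Tdo2 (-0.10, 0.555) and Haao (-0.22, 0.197) were not called, but Hpd was called under cyclic loess (0.0377), centring (0.0387), gene means (0.0322) and the trended prior (1.11e-05). The 95% intervals were -0.51 to -0.07 for Hpd, -0.43 to 0.21 for Hgd, -0.33 to 0.13 for Tdo2 and -0.46 to 0.01 for Haao. Of all called interactions, 55.1% were higher as deposited and 44% after centring.

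**Figure D2:**
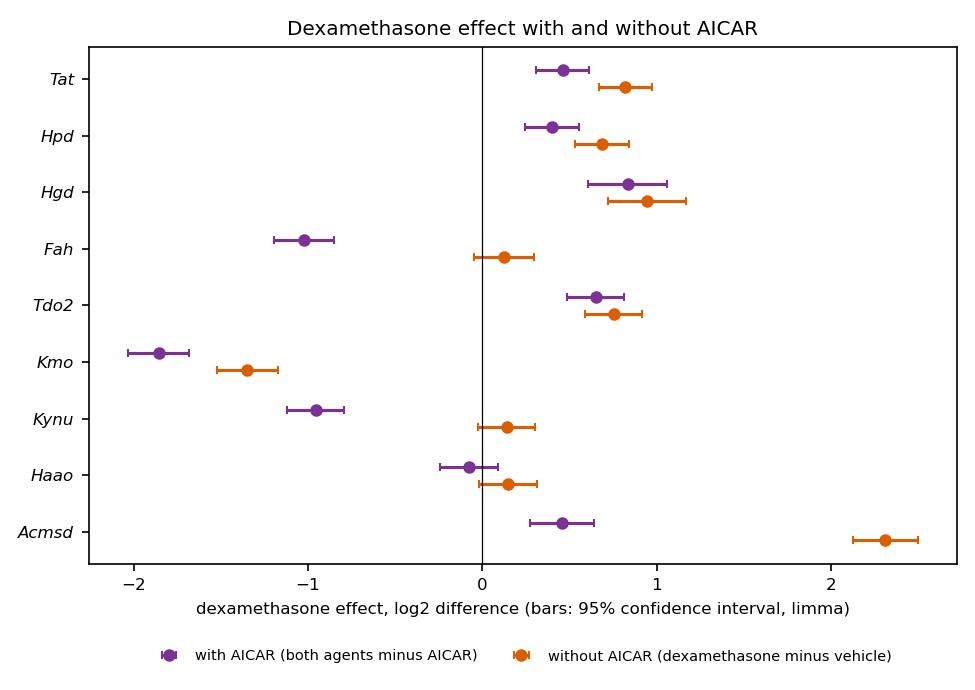
Log2 effect of dexamethasone on each of the 9 genes (horizontal axis) with AICAR, as both agents minus AICAR, and without it, as dexamethasone minus vehicle, with 95% confidence intervals from limma as bars. The effects on Hgd and Tdo2 lie close together, that on Acmsd is 0.46 with AICAR and 2.31 without, and those on Fah and Kynu are near -1 with AICAR and near 0 without.

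Markers of other liver cells moved in the same groups. The summed linear level of 11 measured macrophage markers was 663 to 667 with both agents, 2573 to 2836 with dexamethasone, 6314 to 6374 with AICAR and 5836 to 5935 with vehicle. All 11 were lower with both agents than with vehicle, with a median log2 difference of -4.02, and 4 of the 11, Cd5l among them, lay below the dim level. With dexamethasone 10 of the 11 were lower and with AICAR 1 was lower and 3 higher, of which none was called higher without any 1 of the AICAR or vehicle arrays. Over all probe sets, 13.3% were higher and 13.6% lower with both agents than with vehicle. With dexamethasone the shares were 8.67% and 9.77%, and with AICAR 5.45% and 7.47%. The 1 of 11 lower with AICAR is near that share. In bulk tissue, fewer cells of a type and less RNA per cell cannot be told apart. The summed level of the 9 hepatocyte markers was 132760 to 133040 with both agents, 129910 to 131150 with dexamethasone, 127310 to 128110 with AICAR and 130430 to 130980 with vehicle, though its brightest genes sit near the top of the range (the highest value on any array was 14.74). The macrophage markers fell with dexamethasone and with both agents, as Kmo did, and with both agents alongside Fah and Kynu. Their part in those results was not tested.

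Of 7 measured sinusoidal endothelial markers, 4 were lower and none higher with both agents than with vehicle, with sums of 2873 to 2892 and 3892 to 4032. Their sum was lowest with dexamethasone alone, 2689 to 2752, where 5 were lower and none higher than with vehicle. With AICAR alone it was 3515 to 3548. Of 11 lymphocyte markers 8 were lower and none higher with both agents than with vehicle. The sums were 263 to 269 and 511 to 536. With dexamethasone alone 6 were lower and none higher, with a sum of 312 to 349. With AICAR alone the sum was 438 to 473. The general leukocyte gene Ptprc fell most with both agents (-2.48). Group means of the 11 with both agents lay between 4.07 and 5.37, not far above the dim level of 3.84. Of 11 stellate cell markers 5 were higher and 3 lower with both agents than with vehicle. In that comparison 1 of 6 cholangiocyte markers was higher, and of 7 kidney markers none was called. Over all probe sets, 13.3% were higher and 13.6% lower in the same comparison. A count of 1 gene among 6 or 10 is near these shares, and nothing is read from it. Periportal genes summed to 45402 to 45596 with both agents, 56072 to 57648 with dexamethasone, 37119 to 37248 with AICAR and 39746 to 40191 with vehicle. The sum rests on its bright genes, and the counts differ from it. Of these 10 periportal genes, which include Cps1 of the hepatocyte list, 3 were higher (Ass1, Arg1 and Cps1) and 6 lower with both agents than with vehicle, with a median log2 difference of -0.56. Against vehicle, 7 were higher and 1 lower with dexamethasone, and none higher and 6 lower with AICAR, with medians of 0.37 and -0.39. Over all probe sets, 8.67% were higher and 9.77% lower with dexamethasone, and 5.45% and 7.47% with AICAR. Pericentral genes summed to 18506 to 18516 with both agents, 23816 to 24190 with dexamethasone, 30381 to 30789 with AICAR and 26145 to 26218 with vehicle. This sum also rests on its bright genes. Of the 10, 1 was higher and 4 lower with both agents than with vehicle. With dexamethasone 2 were higher and 2 lower. With AICAR 2 were higher (Cyp1a2 by 0.76 and Cyp7a1 by 2.11) and 1 lower. The median log2 differences were -0.12 with dexamethasone and 0.07 with AICAR. The 3′ minus 5′ difference of the actin control probe sets, a sign of RNA quality, was 1.77 to 1.83 with both agents, 2.03 to 2.04 with dexamethasone, 1.79 to 1.84 with AICAR and 2.20 to 2.26 with vehicle. For the GAPDH controls it was 0.31 to 0.34 with both agents, 0.40 to 0.43 with dexamethasone, 0.37 to 0.41 with AICAR and 0.60 to 0.61 with vehicle, so that both agents and vehicle stood apart from the other groups. The part of RNA quality and of zonation in the results above was not tested.

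**Figure D3:**
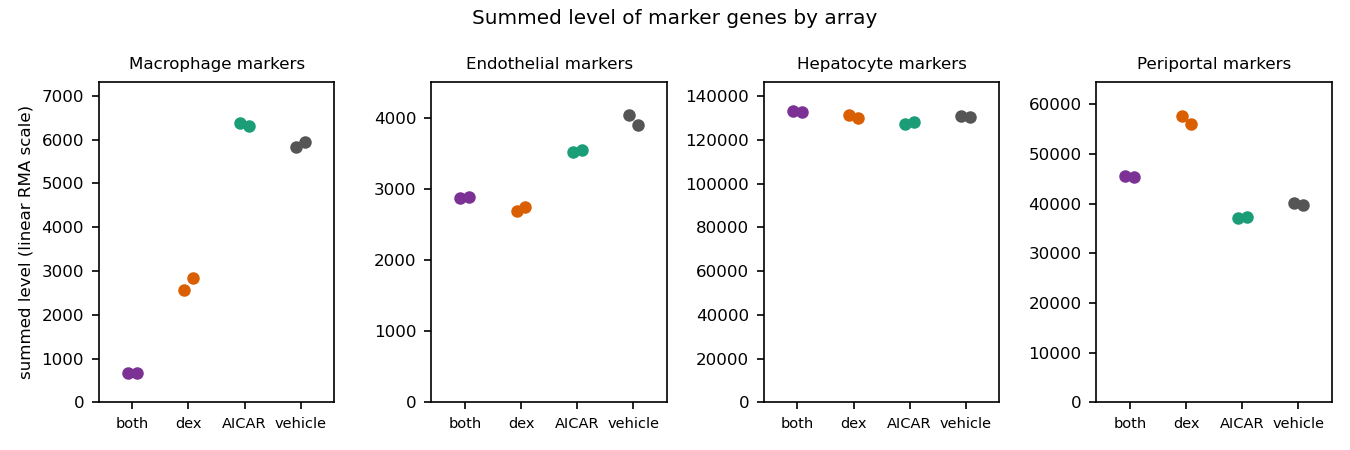
Summed level of the marker genes of macrophages, sinusoidal endothelium, hepatocytes and the periportal zone (vertical axis, linear scale starting at 0) on the 2 arrays of each group (points). The macrophage sum is 663 to 667 with both agents and 5836 to 5935 with vehicle, while the hepatocyte sum stays between 127310 and 133040 on all arrays.

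The neighbouring steps of these routes were followed through 5 further lists, of which 35 of 41 genes were measured. With dexamethasone against vehicle 5 of the 35 rose and 9 fell, with AICAR 2 rose and 9 fell, and with both agents 9 rose and 15 fell. Over all probe sets, 8.67% rose and 9.77% fell with dexamethasone, 5.45% and 7.47% with AICAR, and 13.3% and 13.6% with both agents, so that 2 of 35 higher with AICAR is near the share of all probe sets. The same shares apply to the counts of the single lists that follow, where 1 called gene among 6 to 10 is near them and nothing is read from it. The median log2 differences were -0.03, -0.10 and -0.15. Without 1 array, the count of genes that fell was 5 without the second vehicle array for dexamethasone. For AICAR it was 5 and 4 without the first and the second vehicle array and 2 without the first AICAR array, and the count that rose was 1 without the second vehicle or the second AICAR array. Among other genes of tyrosine use, Got1, the cytosolic aspartate aminotransferase, rose by 1.34 with both agents (adjusted p = 4.06e-06) and by 1.32 with dexamethasone (7.92e-06). With AICAR it was lower by a difference of -0.44 (0.00705), a call lost without the first AICAR array (0.0506). Gstz1, the maleylacetoacetate isomerase that acts just before fumarylacetoacetase, fell by 0.58 with both agents (adjusted p = 5.73e-04), and was not called with dexamethasone (-0.01) or AICAR (-0.14). Ddc, the aromatic amino acid decarboxylase, was lower in all 3 comparisons, with log2 differences of -1.59 with both agents, -0.81 with dexamethasone and -0.68 with AICAR (adjusted p = 7.59e-06, 6.62e-04 and 0.00366), while a second, dimmer Ddc probe set was not called in any comparison.

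Tetrahydrobiopterin is the cofactor of aromatic amino acid hydroxylation. Of 6 measured genes around this cofactor 1 rose and 2 fell with both agents, none rose and 2 fell with dexamethasone, and 1 fell with AICAR. Gch1, the first enzyme of cofactor synthesis, fell by 0.80 with both agents (adjusted p = 8.05e-05), and Pts, the second, rose by 0.69 (6.24e-04). Dnajc12, which encodes a co-chaperone, fell by 0.44 with both agents (0.00231) and fell by 1.05 with dexamethasone (2.81e-05).

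Of 8 other kynurenine genes, 2 rose and 4 fell with both agents, 2 rose and 3 fell with dexamethasone, and 1 rose and 3 fell with AICAR, each against vehicle. Dhtkd1, of the late oxidative branch, fell by 0.95 with both agents (adjusted p = 1.75e-05). Kyat3, a kynurenine aminotransferase, fell by 0.49 with both agents (0.0013), and Kyat1, another, rose by 0.58 with AICAR (0.0056). Aadat, which encodes a further aminotransferase, rose by 0.49 with dexamethasone (0.00211) and was not called with both agents (-0.06, 0.597). Qprt, which turns quinolinate into a nucleotide, rose by 0.40 with both agents and 0.43 with dexamethasone (0.00388 and 0.00396), whereas its second, dimmer probe set was higher with both agents (0.34, 0.0105) but not called with dexamethasone (0.05, 0.709). Afmid, the formamidase that follows Tdo2, fell by 0.53 with AICAR (0.00676), and its other probe sets had differences of -0.97 and -0.90. The call at -0.53, for the brightest of the Afmid probe sets, was lost without the first AICAR array (0.051).

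Of 10 genes of nicotinamide nucleotide metabolism, 4 rose and 2 fell with both agents, 2 rose and 1 fell with dexamethasone, and 1 rose and 3 fell with AICAR. Nnmt, which methylates nicotinamide, rose by 1.51 with both agents (adjusted p = 1.23e-06) and by 1.88 with dexamethasone (7.93e-07). Nmnat1 rose by 0.58 with both agents (0.00131), and the NAD kinase gene Nadk2 fell by 0.72 (2.92e-04). Nampt, the salvage enzyme, fell by 0.48 with AICAR (0.0055), while its dimmer probe set was not called (-0.27, 0.135). Of 6 carriers of aromatic amino acids, 1 rose and 4 fell with both agents, 2 fell with dexamethasone and none was called with AICAR, beside the same shares over all probe sets. Slc43a1 fell by 0.70 with both agents (adjusted p = 2.82e-04) and Slc7a8 fell by 0.57 (0.00348), and Slc3a2, the shared heavy chain of such carriers, rose by 0.35 (0.00497).

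**Figure D4:**
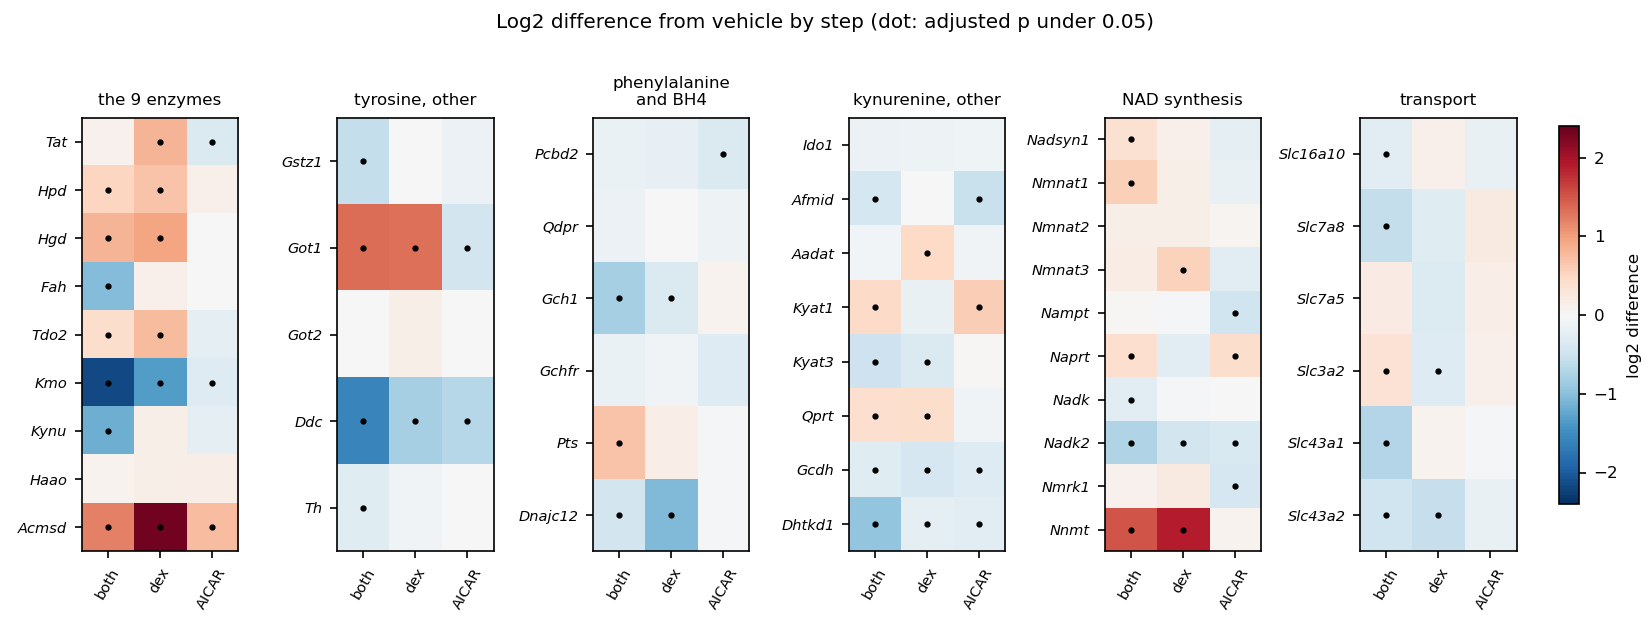
Log2 difference from vehicle (colour) of the 9 enzymes and of 35 genes of neighbouring steps (rows) with both agents, dexamethasone and AICAR (columns), with a dot where adjusted p is under 0.05. Acmsd reaches 2.31 with dexamethasone and Kmo -2.17 with both agents, the ends of the colour range among the 9.

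Genes with the most similar profile over the 8 arrays were sought for the 5 enzymes whose group means spanned at least 1 on the log2 scale, among 1095 genes with at least that span. The likeness is a Pearson correlation over 8 arrays that fall into 4 groups of 2 and share 1 normalization, and it is a description with no test. Fah was closest to Gckr (0.999), Car5a (0.998) and Nr0b2 (0.996), and Gckr, the glucokinase regulator, had group means of 9.37 with both agents, 10.61 with dexamethasone, 10.49 with AICAR and 10.50 with vehicle. Kynu was closest to the cystathionine gamma-lyase gene Cth (0.998), Dhrs7l1 (0.995) and Crybg2 (0.991). Kmo was closest to Bdh1 (0.999), Slc17a4 (0.998) and Ctla2a (0.998), and Bdh1, a ketone body enzyme, had means of 8.81 with both agents, 9.56 with dexamethasone, 10.52 with AICAR and 10.72 with vehicle. Tat was closest to Foxa1 (0.994), Vamp7 (0.994) and Znfx1 (0.990), and Acmsd to Cyp1a1 (0.994), Nr1i2 (0.992) and RT1-DMa (0.992).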

How the data were processed

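The authors deposited a table of log2 values, 1 for each array and probe set. The submitters' processing notes name RMA and the affy package, with versions not given in the sources used here, and the base of the logarithm was read from the range of the values. RMA sets all arrays to a common distribution and compresses differences of dim probe sets. Array medians lay between 5.22 and 5.27.

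Of 31099 probe sets, 57 array controls were left out and 31042 were tested. The annotation gives 20826 probe sets 1 gene symbol and 436 several. Groups follow the labels. limma 3.58.1 in R 4.3.3 fitted 1 coefficient per group over all 8 arrays, with spreads moderated by empirical Bayes (4.58 prior degrees of freedom added to 4 residual), and p-values were adjusted over all 31042 by Benjamini and Hochberg's method. Errors with ± are limma standard errors, intervals are 95%, and called means adjusted p under 0.05. The number of arrays limits the precision. Where a gene had several probe sets, the brightest stood for it.

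The 9 genes, the gene lists and the tests were chosen with earlier results of these data known. All 9 genes are covered in every comparison, though Haao, for both agents against either agent alone, only by the statement that it was not called. Of the other pathway lists, only a selection of the called genes is named, by no fixed rule, with Gstz1, Afmid, Aadat and Qprt whether called or not. The counts given for each list cover all its measured genes. The listed genes without a measured value were not analysed here. The code was tested on simulated data. Alternatives were another scaling, a filter on dim probe sets, another prior, only the groups compared, a 2-fold minimum, gene means, the replicate block and leaving out each array. The labels do not say whether the replicate numbers pair the arrays. Deviations from group means of arrays with the same number correlated at -0.04 to 0.16, which with 2 arrays per group cannot exclude pairing.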

Additional observations from a re-analysis of the deposited data

Results flagged for a closer look

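The dexamethasone effect differed with and without AICAR, by the interaction test in limma at adjusted p under 0.05, for 5 of the 9 enzymes. The difference between the log2 effects was -1.86 for Acmsd, -1.15 for Fah, -1.10 for Kynu, -0.51 for Kmo and -0.36 for Tat. The call for Tat was lost without any 1 array and under the replicate block (adjusted p = 0.0529). That for Kmo was lost without the first vehicle array, the first AICAR array or the first array of both agents. Over all probe sets the interaction was called higher for 8.63% and lower for 7.02%. Of 35 measured genes of the neighbouring steps, it was called higher for 8 and lower for 6. The dexamethasone effect was higher in the presence of AICAR by 0.64 for Dnajc12 (adjusted p = 0.00447), 0.61 for Nmnat1, 0.57 for Pts, 0.54 for Slc3a2, 0.53 for Nampt, 0.46 for Got1, 0.41 for Gcdh and 0.39 for Pcbd2. The difference was -0.76 for Slc43a1 (adjusted p = 0.0032), -0.54 for Gch1, -0.46 for Aadat, -0.46 for Dhtkd1, -0.45 for Nnmt and -0.43 for Gstz1. Leaving out 1 array ended several of these calls. The highest adjusted p so reached was 0.134 for Pcbd2 and 0.0718 for Pts, both without the first AICAR array. Without the first array of both agents it was 0.0779 for Aadat, 0.0753 for Got1, 0.0507 for Dhtkd1 and 0.0502 for Nmnat1. Without the second array of both agents it was 0.101 for Gstz1, 0.1 for Gcdh and 0.0604 for Nnmt. No single array ended the calls for Dnajc12, Slc3a2, Nampt, Slc43a1 or Gch1. The interaction was not called on the dimmer probe sets of Gch1 (-0.49, adjusted p = 0.0796), Nampt (0.41, 0.106), Pcbd2 (0.35, 0.133) and Gcdh (0.27, 0.152, and 0.32, 0.0802). For Afmid it was not called on the brightest probe set (0.10, 0.64) but was on the dimmer ones (0.60, 0.012, and 0.55, 0.0185). Under cyclic loess the calls for Pcbd2 (0.122), Got1 (0.0575) and Gcdh (0.0962) were also lost, as were those for Pcbd2 (0.0657) and Gcdh (0.062) under centring and that for Pcbd2 (0.0585) under the replicate block.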

How the results depend on the processing

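With 2 arrays per group, small differences of the 9 enzymes were near the limit of the test. Leaving out arrays and the 2-fold minimum aside, 346 of 369 gene and comparison values kept direction and side of the threshold. Of the rest, 3 lost the call, 16 gained it and 4 changed sign. With the 2-fold minimum included, 379 of 423 held and 24 lost the call, since that setting drops every smaller difference by construction. The sign changes were AICAR against vehicle for Hgd (0.032 by cyclic loess and 0.027 by centring) and Fah (0.034 and 0.032). Without 1 array, 225 of 252 held, with Hgd at -0.15 to 0.12 and Fah at -0.045 to 0.022 against vehicle with AICAR, and Hgd at -0.25 to 0.025 for the interaction. Enzymes called with AICAR against vehicle numbered 7 with a trended, robust prior, 5 with gene means and 1 without any 1 array, against 3 with all arrays. For the interaction 3 to 4 were called without 1 array, and 6 under cyclic loess, centring and gene means and 7 with the trended prior, against 5. Hpd gained the interaction call in those 4 settings (adjusted p down to 1.11e-05). With the trended prior all 9 were called for dexamethasone against vehicle, and Haao was called with dexamethasone (0.0224), with AICAR (0.0145) and for the interaction (0.0161). A 2-fold minimum left 2 enzymes with dexamethasone, 0 with AICAR (none of the 9 differed 2-fold there at any p), 4 with both agents, 3 for both agents against dexamethasone, 2 against AICAR and 3 for the interaction, and 605, 169, 964, 548, 1040 and 767 probe sets in the same order. Over all probe sets, AICAR against vehicle gave 6048 with the other prior and 2345 with only those groups. Gene means, with fewer features tested, gave 3666, 2607, 5320, 4052 and 5790 calls in the order dexamethasone, AICAR and both agents against vehicle, then both agents against dexamethasone and against AICAR. Without 1 array the calls were 3738 to 4252 for dexamethasone, 1447 to 1989 for AICAR, 3698 to 4933 for both agents against dexamethasone and 2910 to 3991 for the interaction. With the replicate block 4 interactions of the 9 were called, Tat being lost (adjusted p = 0.0529), and the labels do not say whether the numbers pair the arrays. The replicate block ended no other call among the 9. Where no construction of the setting shows the cause, the cause was not tested.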
